A study of Homo sapiens with 12 samples.

Results

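The cytosolic ribosomal protein genes encode the proteins of the small and large subunits of the ribosome that translates messenger RNA in the cytosol. They were taken by name, as symbols that start with RPL or RPS followed by a number and at most a letter A, L or X, together with RPLP0, RPLP1, RPLP2, RPSA and FAU. This gave 82 of the 40605 rows of the merged gene count table. By role they were 43 large-subunit genes, 3 genes of the large-subunit stalk (RPLP0, RPLP1 and RPLP2), 32 small-subunit genes and 4 genes for paralogues (RPS27L, RPL39L, RPL3L and RPL10L). The name rule leaves out pseudogenes and a few relatives such as RACK1 and RPL22L1.

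Most of the ribosomal proteins are made in equal amounts for each ribosome, and the messages of ribosomal proteins are among the most abundant in growing cells. Most begin with a cytosine inside a run of pyrimidines, the 5' terminal oligopyrimidine (TOP) start, through which mTORC1 and the RNA-binding protein LARP1 adjust the translation and stability of these messages together. Free RPL5 and RPL11, bound to 5S ribosomal RNA, restrain MDM2 and so link ribosome assembly to p53.

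RNA levels came from 12 libraries of reads near the 3' ends of messages. The cells were A549, an established human lung adenocarcinoma cell line, carrying a tetracycline-inducible DYRK1B transgene. DYRK1B is a protein kinase, and its Y273F form lacks the tyrosine of the activation loop that the kinase phosphorylates on itself. By title there were 3 libraries each of Y273F doxycycline, Y273F control, WT doxycycline and WT control, where doxycycline groups received 2 µg/ml of the inducer and all cells were grown for 7 days. The groups share the A549 background and the inducible system, no line without the transgene is among the samples, and the series text describes 3 cell populations grown and lysed in parallel.

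The labels number the libraries from 1 to 12. Y273F doxycycline 1, 2 and 3 are libraries 10, 11 and 12, Y273F control 1, 2 and 3 are libraries 7, 8 and 9, WT doxycycline 1, 2 and 3 are libraries 4, 5 and 6, and WT control 1, 2 and 3 are libraries 1, 2 and 3. Values are given below both by title and by 4 sets of libraries whose numbers lie 4 apart, which are 2, 6 and 10, then 4, 8 and 12, then 3, 7 and 11, and then 1, 5 and 9. The labels give these sets no condition. The sets were proposed with earlier results of these data known, so they are described without a test. Total counts ranged from 2783265 in library 10 to 22028624 in library 9.

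The titles were checked first against DYRK1B, the gene meant to be induced, in CPM, the usual unit of counts scaled to library size, here with TMM factors. In the libraries titled Y273F doxycycline it was at 4.65, 4.88 and 19.97 CPM, against 2.63, 12.6 and 3.22 CPM in those titled Y273F control. Those titled WT doxycycline had 28.6, 4.06 and 7.79 CPM, against 5.79, 3.15 and 5.63 CPM in those titled WT control. The log2 fold change was 0.88 ± 0.84 (SE) in the Y273F line and 1.44 ± 0.82 in the WT line (edgeR, adjusted p 0.990 and 1.00). The highest values were in libraries 4, 12 and 8, of which library 8 is titled a control. These are the set of libraries 4, 8 and 12, and every other library was at 7.79 CPM or less. By title the groups thus did not separate high from low DYRK1B RNA, and whether the titles match the libraries was not tested. Whether the transgene carries the 3' end of DYRK1B that these reads cover is not known here, which limits the check. Groups were kept as titled, and a direction given by title refers to the titles. The epithelial keratin genes KRT8 and KRT18 were read in every library, the lowest values being 663 and 2248 CPM of library totals. The surfactant gene SFTPB and the endothelial gene VWF were at 0 counts in all 12 libraries.

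Libraries 2, 6 and 10 stood apart from the other 9 in the share of counts taken by the ribosomal protein genes. The 82 genes held 11.0%, 10.7% and 11.1% of the counts in libraries 2, 6 and 10, against 13.6% to 15.1% in the other 9. By title the shares averaged 13.6% ± 2.14 in Y273F doxycycline and 13.9% ± 0.279 in Y273F control libraries (SD, n = 3 each). In WT doxycycline libraries the share averaged 13.2% ± 2.26, and in WT control libraries 13.2% ± 2.07 (SD, n = 3 each). The 3 groups with the wide spread each hold 1 of libraries 2, 6 and 10. In these bulk libraries fewer cells of a type and less RNA per cell cannot be told apart.

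**Figure D1:**
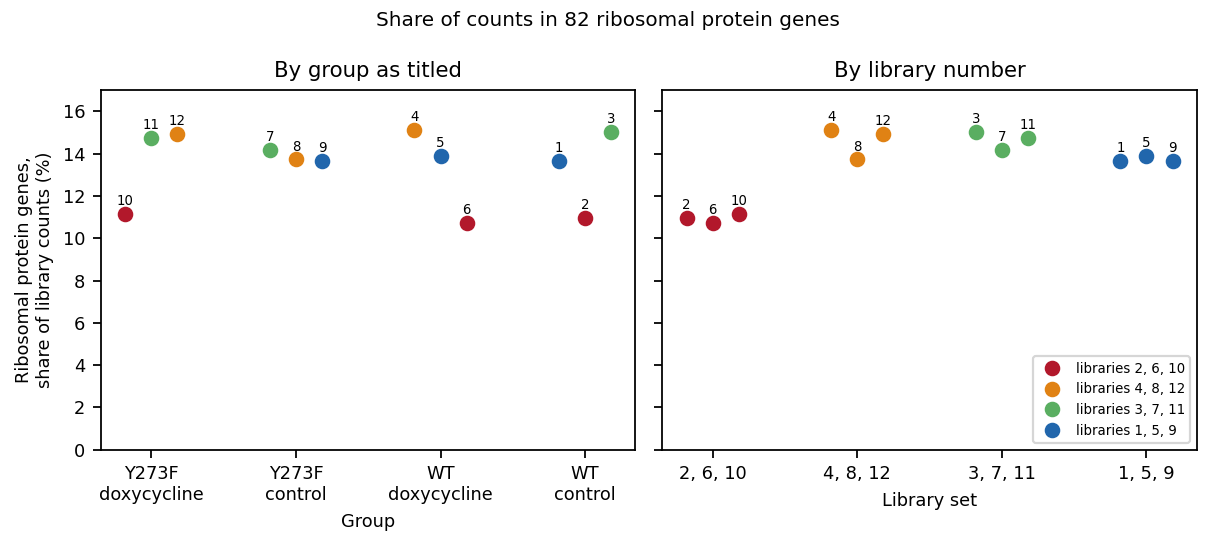
Share of each library's counts (%, vertical axis from 0) in the 82 ribosomal protein genes, with libraries placed by title group (left) and by set of library numbers (right); each point is a library, labelled with its number. Libraries 2, 6 and 10 lie at 10.7% to 11.1% and the other 9 at 13.6% to 15.1%.

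The TOP start is part of what these genes share in sequence, so the windows around annotated starts were read first. The RefSeq promoter table for GRCh38.p14 held 80 promoters of 65 of the 82 genes. In 47 of the 80 (58.8%) the annotated start base was a C followed by at least 4 more pyrimidines (C or T), against 4.07% of all 35116 promoters in the table. Only the annotated strand of each gene was read. Among promoters of non-ribosomal TOP genes this share was 73.9%, of small nucleolar RNA host genes 40.0%, of ribosome biogenesis factors 8.06% and of mitochondrial ribosomal protein genes 7.06%.

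Windows of 30 bases are shown for genes that the values below turn on, with the annotated start as the 11th base. Capitals mark the unbroken run of C and T that holds the start base, and a window without capitals has a purine there. RPS6 (chr9:19380217-19380246, minus strand), RPL22 (chr1:6199576-6199605, minus strand), RPL39 (chrX:119791611-119791640, minus strand) and RPS27 (chr1:153990752-153990781, plus strand) begin in such a run, while the start of the paralogue RPS27L (chr15:63157458-63157487, minus strand) does not. RPL3 (chr22:39319604-39319633, minus strand) has a shorter run, RPS26 (chr12:56041908-56041937, plus strand) none at its annotated start, and RPL11 has an upstream start without a run (chr1:23691769-23691798, plus strand) and a downstream start with one (chr1:23691796-23691825, plus strand). RPL22, RPL39 and RPS27 were chosen after their values were seen, as the partners of paralogues.
RPS6: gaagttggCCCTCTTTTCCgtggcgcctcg
RPL22: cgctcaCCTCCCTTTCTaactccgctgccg
RPL39: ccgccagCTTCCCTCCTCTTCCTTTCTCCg
RPS27: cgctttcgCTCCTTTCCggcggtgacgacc
RPS27L: gatgccgagcgcagatcgcttgcagcttgc
RPL3: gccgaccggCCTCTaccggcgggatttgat
RPS26: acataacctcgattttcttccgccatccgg
RPL11, upstream start: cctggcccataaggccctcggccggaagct
RPL11, downstream start: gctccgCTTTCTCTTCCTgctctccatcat

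Of the 82 genes, 78 passed the filter on low counts and were tested among 13047 genes. The other 4 included RPL10L and RPL3L, paralogues known for expression in testis and in striated muscle, and RPL17. RPL10L had 0 counts in every library, where 3 counts would be 0.136 to 1.08 CPM, and RPL3L had 1 count in each of libraries 6 and 9. RPL17, of the large subunit, had at most 10 counts in any library. In GENCODE v29, 32.7% of the exonic bases of RPL17 lie in another gene on the same strand, and the part of that overlap in these low counts was not tested.

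The comparison of doxycycline with control in each line asks, if the titles hold, what 7 days of induced DYRK1B change. Among the ribosomal protein genes no change passed the test by title. With edgeR's quasi-likelihood test and Benjamini-Hochberg adjustment over all genes, 0 of 78 members and 0 of 13047 genes (0%) passed an adjusted p of 0.05 in Y273F doxycycline against Y273F control, where 0 members and 215 genes had an unadjusted p under 0.05. In WT doxycycline against WT control the counts were also 0 of 78 and 0 of 13047 (0%), with 3 members and 118 genes under 0.05 unadjusted. The difference of the effects (WT effect minus Y273F effect) passed for 0 members and 0 genes (0%), with 1 member and 161 genes under 0.05 unadjusted. Y273F control against WT control gave 0 members and 0 genes (0%), with 1 member and 445 genes under 0.05 unadjusted. The DESeq2 Wald test and limma-voom also called 0 members in each comparison, and DESeq2 called 2 genes of all in Y273F control against WT control.

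The typical member was close to its level in the control by title, with a wide interval. The median log2 fold change over the 78 members was -0.03 in Y273F doxycycline against control, beside 0.01 for all genes, and 0.02 in WT doxycycline against control, beside -0.00 for all genes. For the difference it was 0.05, beside -0.02 for all genes, and for Y273F control against WT control 0.06, beside -0.03. The median standard error of a member was 0.20 in each of the comparisons of 2 groups and 0.29 in the difference. The interval around a change reaches further than its standard error to either side, so the titles leave room for larger changes than these in single genes. The sign of these small medians moved with single libraries. Without WT doxycycline 1 the median in the WT line was -0.12 and without WT doxycycline 3 it was 0.15. In the Y273F line it was -0.13 without Y273F doxycycline 3 and 0.09 without Y273F doxycycline 1.

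Few members separated the groups as titled. In Y273F doxycycline against control, 3 members were higher without overlap (RPL32, RPS3 and RPS26, beside 5.46% of all genes) and 1 was lower (RPL35, beside 5.46%). RPL35 and the genes RPS18, RPS25 and RPL21 below fall outside the rule for named genes and were chosen after their values were seen. In WT doxycycline against control, 0 members were higher (1.56% of all genes) and 1, RPS20, was lower (1.63%). In Y273F control against WT control, 5 were higher (RPSA, RPS18, RPS25, RPL6 and RPL21, beside 5.62%) and 0 lower (5.24%). Alignment can divide reads between a gene and near-identical pseudogenes, so each gene was also summed with all pseudogenes of its name, an alternative chosen after the data were seen. With these sums the groups overlapped for RPL32 in Y273F doxycycline against control, which left 2 members higher and 1 lower. In Y273F control against WT control they overlapped for RPSA, RPL6 and RPL21, and 3 members were higher (RPS18, RPS25 and RPS2). RPS20 stayed lower in WT doxycycline against control.

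RPS6, the small-subunit protein phosphorylated by S6 kinases, illustrates the spread within titles. It was at 3177, 5137 and 5279 CPM in Y273F doxycycline libraries 1 to 3, against 4951, 4868 and 4598 CPM in Y273F control libraries. In WT doxycycline libraries it was at 5934, 4856 and 3137 CPM, against 4421, 3144 and 6066 CPM in WT control libraries. The groups overlapped in both lines, and the lowest library of 3 of the groups was library 10, 6 or 2. Its log2 fold change was -0.08 ± 0.28 (SE) in the Y273F line and 0.03 ± 0.28 in the WT line, with edgeR adjusted p of 0.992 and 1.00. RPL11 varied less, with 1480.3, 1645 and 1713 CPM in Y273F doxycycline, 1557, 1644 and 1481 CPM in Y273F control, 1802, 1471 and 1465 CPM in WT doxycycline and 1411, 1484 and 1674 CPM in WT control libraries. Its log2 fold change was 0.05 ± 0.12 (SE) in both lines.

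Other genes with the larger changes by title also missed the test. RPL32 averaged 3341 ± 457 CPM in Y273F doxycycline and 2547 ± 86 CPM in Y273F control libraries (SD, n = 3 each). The log2 fold change was 0.39 ± 0.18 (SE; edgeR, adjusted p 0.990), and 0.14 with its pseudogenes. The sums were 3124, 4299 and 3915 CPM in Y273F doxycycline libraries, against 3527, 3476 and 3315 CPM in Y273F control libraries. RPS15 averaged 986 ± 352 CPM in Y273F control and 658 ± 120 CPM in WT control libraries (SD, n = 3 each). Here the log2 fold change was 0.58 ± 0.26 (SE; edgeR, adjusted p 0.991), 0.25 without Y273F control 3 and 0.12 with its pseudogenes.

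More of the variation lay between the sets of library numbers than between the titles. The median member had 79.0% of its log2 CPM variance between the 4 sets and 7.75% between the 4 title groups, against 59.6% and 17.5% for all genes tested. Among all genes with a mean of at least 100 CPM the medians were 73.5% and 16.5%. More than 50% of the variance lay between sets in 66 of 78 members (84.6%), against 60.5% of all genes. Among genes with a mean of at least 100 CPM this share was 74.5%, nearer to that of the members. Between title groups, 0 members passed 50%, against 794 of 13047 genes and 119 of 1955 with a mean of at least 100 CPM.

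**Figure D2:**
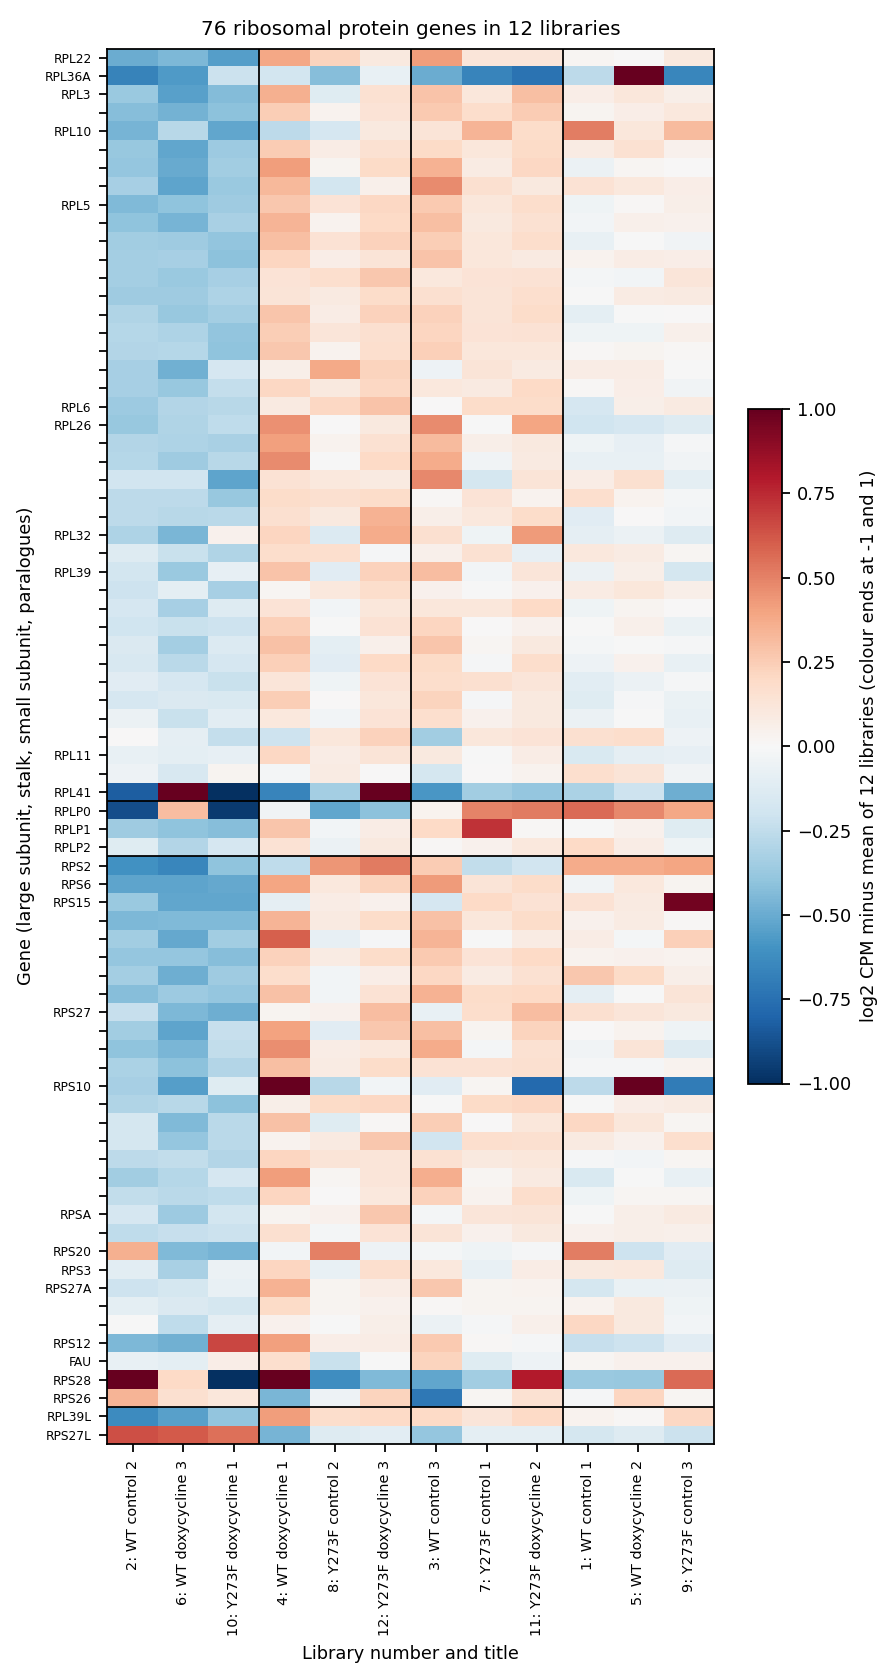
Log2 CPM of 76 of the 78 tested members after subtraction of its 12-library mean (colour, ends at -1 and 1), with genes in rows by role and libraries in columns by set of library numbers; columns carry the library number and title, and the rows described in the text mostly carry the gene's symbol. Libraries 2, 6 and 10 are below the mean (blue) in most rows of both subunits, while RPS27L in the bottom row is above it.

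Libraries 2, 6 and 10 had lower CPM of most ribosomal protein genes than libraries 1, 5 and 9 and than libraries 4, 8 and 12. CPM is relative to library size, so these values give no amount of RNA per cell. The level of the list, which averages over members each gene's log2 CPM after its own 12-library mean is subtracted, was -0.26, -0.29 and -0.29 in libraries 2, 6 and 10. It was 0.21, 0.01 and 0.17 in libraries 4, 8 and 12, then 0.12, 0.06 and 0.11 in libraries 3, 7 and 11, and 0.02, 0.13 and 0.02 in libraries 1, 5 and 9. No library of the first set reached the lowest of the other 9. Each set enters 2 of the 4 pairs described below, so the pairs share libraries and their values are given side by side.

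Against libraries 1, 5 and 9, 60 of 78 members were lower in libraries 2, 6 and 10 without overlap, beside 27.6% of all genes, and 1 was higher, beside 27.7%. The median difference was -0.33 on the log2 scale, beside -0.02 for all genes. Against libraries 4, 8 and 12, 62 were lower (23.1% of all genes) and 1 higher (25%), with a median of -0.48 beside 0.00. Both subunits took part. Of the 45 tested genes of the large subunit and stalk, 37 and 38 were lower in these pairs, and of the 31 of the small subunit, 22 and 23.

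**Figure D3:**
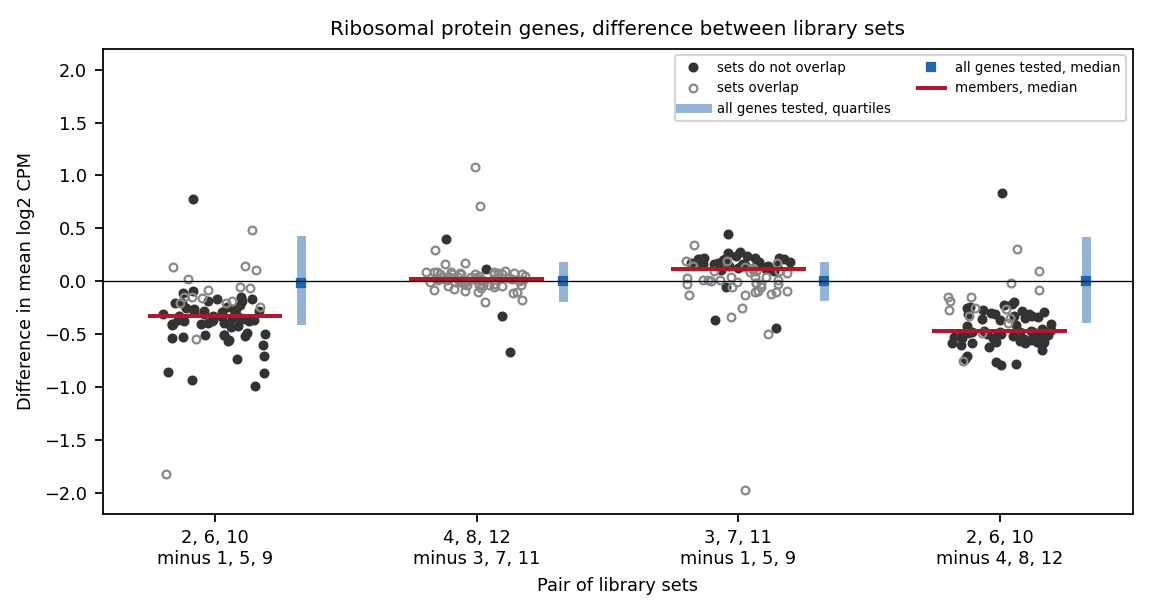
Difference in mean log2 CPM for each tested member (points) in 4 pairs of library sets, with the median over members (red line) and the median and quartiles over all 13047 genes tested (blue). Filled points are members whose sets do not overlap; the medians lie at -0.33 for libraries 2, 6 and 10 minus 1, 5 and 9, at 0.02 for 4, 8 and 12 minus 3, 7 and 11, at 0.11 for 3, 7 and 11 minus 1, 5 and 9, and at -0.48 for 2, 6 and 10 minus 4, 8 and 12.

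Libraries 3, 7 and 11 were slightly above libraries 1, 5 and 9 in many members. In this pair 34 of 78 members were higher without overlap (9.67% of all genes) and 3 were lower (9.99%), with a median difference of 0.11 beside 0.00 for all genes. Of the genes of the large subunit and stalk 24 of 45 were higher, and of the small subunit 10 of 31. The difference of the list level was 0.04. It was 0.08 without library 5, where RPL36A was high, 0.02 without library 9 and 0.03 without library 1. With library totals in place of TMM it was 0.02, and with the median over members in place of the mean 0.11. Libraries 4, 8 and 12 against 3, 7 and 11 showed little for the list, with 2 members higher (8.99%), 2 lower (8.5%) and a median of 0.02. The higher ones were RPL36A and RPL29, and the lower ones RPLP0 and RPL10. With pseudogenes the sets overlapped for RPL36A (log2 difference 0.12, against 0.40 alone) and for RPL10. Between libraries 3, 7 and 11 and libraries 1, 5 and 9 the lower members included RPS2 and RPL19, which both overlapped with their pseudogenes. RPL29 and RPL19 were chosen after their values were seen.

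In the small subunit, RPS6 was at 3144, 3137 and 3177 CPM in libraries 2, 6 and 10, against 5934, 4868 and 5279 CPM in libraries 4, 8 and 12. Libraries 3, 7 and 11 had 6066, 4951 and 5137 CPM, and libraries 1, 5 and 9 had 4421, 4856 and 4598 CPM. The first set lay below every other library, with a log2 difference of -0.55 from libraries 1, 5 and 9 and of -0.76 from libraries 4, 8 and 12. RPSA, the laminin receptor and small-subunit protein, had 442, 386 and 437 CPM in libraries 2, 6 and 10 and 489 to 597 CPM in the other 9. Its pseudogenes held 52.1% of the counts of that name, and with them RPSA was at 1113, 755 and 1055 CPM in libraries 2, 6 and 10 and at 848 to 1310 CPM in the other 9, which overlapped. RPS27A, which encodes ubiquitin fused to a small-subunit protein, had 5025, 5131 and 5508 CPM in libraries 2, 6 and 10 against 5133, 5546 and 5573 CPM in libraries 1, 5 and 9. These sets overlapped for RPS27A, and libraries 4, 8 and 12 were higher, at 7377, 5913 and 6111 CPM.

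Some small-subunit genes did not separate libraries 2, 6 and 10 from the sets they were compared with. FAU, whose product is a ubiquitin-like protein fused to RPS30, was at 1113, 1097 and 1229.7 CPM in libraries 2, 6 and 10 and at 1006 to 1368 CPM in the other 9. RPS3, a protein at the messenger RNA entry of the ribosome, had 1261, 1080.2 and 1303 CPM in libraries 2, 6 and 10 and 1243 to 1569.8 CPM elsewhere. RPS26, which contacts the messenger RNA upstream of the start codon, had 419, 370.1 and 358 CPM in libraries 2, 6 and 10 and 201 to 385 CPM elsewhere. All 3 overlapped between the sets. In all, 14 members overlapped in both pairs that hold libraries 2, 6 and 10, and 59 of 78 were lower without overlap in both. Of all genes, 27.6% were lower against libraries 1, 5 and 9 and 23.1% against libraries 4, 8 and 12. The share of all genes lower in both was not computed, and both pairs share libraries 2, 6 and 10.

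In the large subunit, RPL3, a protein of the peptidyl transferase centre, had 431, 382 and 412 CPM in libraries 2, 6 and 10, against 711, 512 and 619.5 CPM in libraries 4, 8 and 12. It had 678, 603 and 686 CPM in libraries 3, 7 and 11 and 583, 601 and 581 CPM in libraries 1, 5 and 9. The first set was the lowest, with a difference of -0.53 from libraries 1, 5 and 9. With the pseudogenes of RPL3, which held 62.0% of the counts of that name, the first set was at 1204, 1143 and 1153 CPM. Libraries 1, 5 and 9 were then at 1591, 1590 and 1429 CPM. RPL10, which joins the large subunit late in its assembly, had 939.9, 1069.5 and 904 CPM in libraries 2, 6 and 10, against 1849.9, 1404 and 1620.0 CPM in libraries 1, 5 and 9. It also separated libraries 4, 8 and 12, at 1086, 1157 and 1393 CPM, from libraries 3, 7 and 11, at 1421, 1642 and 1475 CPM (log2 difference -0.33). With its pseudogenes that difference was -0.07 and the sets overlapped. RPL26, a protein near the exit of the nascent chain tunnel, was at 4085, 2936 and 3864 CPM in libraries 3, 7 and 11. In libraries 1, 5 and 9 it was at 2567, 2628 and 2696 CPM. The log2 difference of 0.45 was the largest among members with no overlap in that pair. With its pseudogenes RPL26 was at 5785, 4229 and 4766 CPM against 3898, 3970 and 3896 CPM, again without overlap.

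The partners of the 5S ribosomal RNA particle differed from each other in this pattern. RPL5 was at 1519, 1555 and 1608 CPM in libraries 2, 6 and 10, against 2001, 2075 and 2140.0 CPM in libraries 1, 5 and 9, a log2 difference of -0.41 without overlap. RPL11 was at 1484, 1465 and 1480.3 CPM against 1411, 1471 and 1481 CPM in the same libraries, which overlapped, a difference of 0.02. Against libraries 4, 8 and 12, at 1802, 1644 and 1713 CPM, RPL11 was lower by a log2 difference of -0.22. The difference between the genes was not tested.

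The genes of the stalk proteins, which recruit translation factors to the large subunit, were lower as well against libraries 1, 5 and 9. RPLP1 had 1903, 1843 and 1814 CPM in libraries 2, 6 and 10, against 2422, 2510.4 and 2231 CPM in libraries 1, 5 and 9, and a single high value of 4008 CPM in library 7. RPLP2 had 1119, 998 and 1088 CPM against 1398, 1287 and 1183 CPM, again without overlap. RPLP0 was uneven, with 819, 1877 and 781 CPM in libraries 2, 6 and 10 against 2247, 2113 and 1977 CPM in libraries 1, 5 and 9. Libraries 2 and 10 were low and library 6 was close to libraries 1, 5 and 9. RPLP0 and its pseudogene are set side by side below.

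The paralogue RPS27L was the 1 member that was higher without overlap in libraries 2, 6 and 10. RPS27L is known in human cells as a target gene of p53, and in mouse its protein can take the place of RPS27 in the ribosome. It was at 644, 628 and 603 CPM in libraries 2, 6 and 10 against 298, 376 and 382 CPM in libraries 4, 8 and 12. Libraries 3, 7 and 11 had 315, 384 and 384 CPM, and libraries 1, 5 and 9 had 364, 375 and 355 CPM. The log2 difference was 0.78 from libraries 1, 5 and 9 and 0.84 from libraries 4, 8 and 12, with no overlap in either. RPS27 itself went the other way, with 1072, 922 and 898 CPM in libraries 2, 6 and 10 against 1401, 1363 and 1341 CPM in libraries 1, 5 and 9 (log2 difference -0.51). By title RPS27L did not pass, with log2 fold changes of 0.29 ± 0.32 (SE) in the Y273F line and -0.02 ± 0.31 in the WT line (edgeR, adjusted p 0.990 and 1.00).

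The other paralogues did not share the direction of RPS27L. RPL39L, known in mouse from male germ cells, had 22.7, 24.1 and 26.8 CPM in libraries 2, 6 and 10 against 36.1, 35.5 and 40.7 CPM in libraries 1, 5 and 9 (log2 difference -0.61). RPL39 had 339, 297 and 363 CPM against 369.8, 402 and 341 CPM, which overlapped. RPL22L1, outside the name rule, had 204, 196 and 171 CPM in libraries 2, 6 and 10, against 369, 354 and 351 CPM in libraries 4, 8 and 12. It had 294, 282 and 269 CPM in libraries 3, 7 and 11 and 256, 271 and 277 CPM in libraries 1, 5 and 9, so libraries 4, 8 and 12 lay above all others for this gene. RPL22, its partner, had 164, 170.1 and 158 CPM in libraries 2, 6 and 10 against 303, 270.0 and 249 CPM in libraries 4, 8 and 12.

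**Figure D4:**
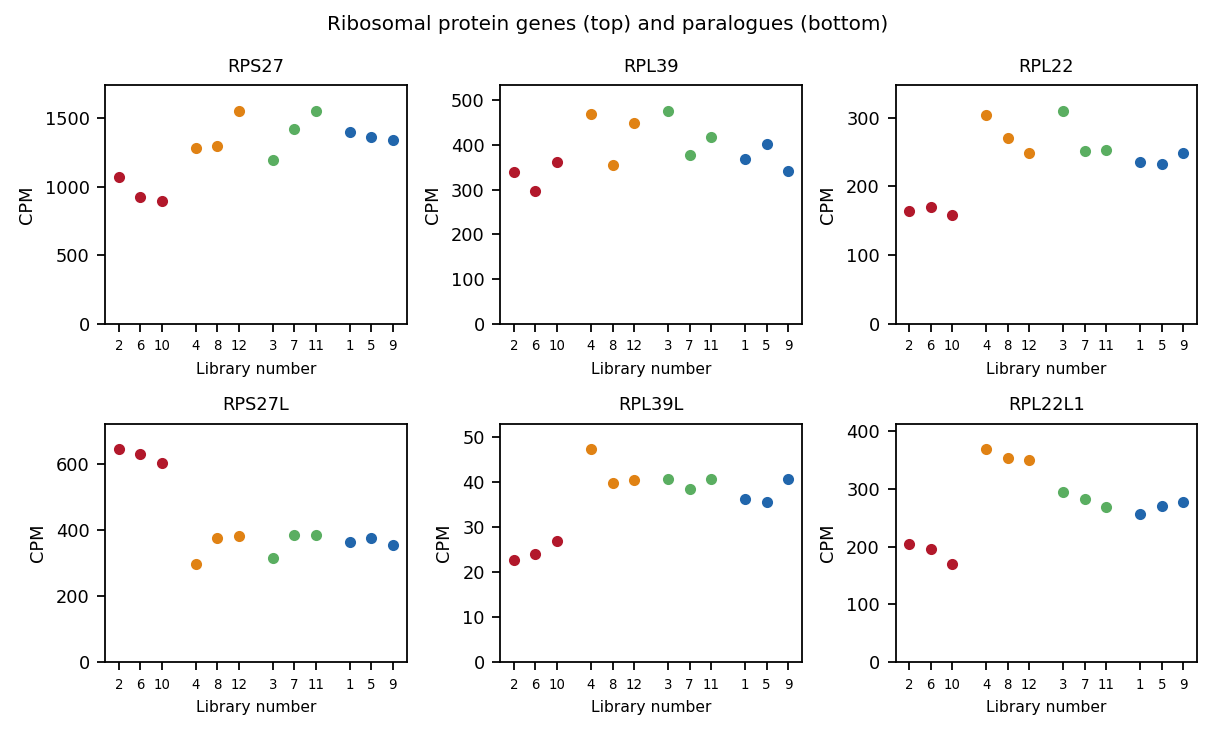
CPM (linear axes from 0) of RPS27, RPL39 and RPL22 (top) and of their paralogues RPS27L, RPL39L and RPL22L1 (bottom) in each library, ordered by set of library numbers; each point is a library and colours mark the sets. RPS27L is at 603 to 644 CPM in libraries 2, 6 and 10 and at 298 to 384 CPM in the other 9, while the other 5 genes are not raised in libraries 2, 6 and 10.

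Among the 6 relatives outside the name rule, RACK1, a signalling scaffold on the small subunit, had 1082, 1062 and 1090.0 CPM in libraries 2, 6 and 10 and 1291 to 1483 CPM in the other 9. RPL22L1 and RACK1 were thus the 2 of 6 (33.3%) that were lower without overlap in both pairs with libraries 2, 6 and 10. Of all genes, 27.6% were lower against libraries 1, 5 and 9 and 23.1% against libraries 4, 8 and 12. The share of the relatives was thus not far from that of all genes.

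Some members were set by 1 or 2 libraries. RPL41, the smallest ribosomal protein, was at 1099 CPM in library 6 and 1523 CPM in library 12, and at 89.0 to 175 CPM in the other 10. RPL36A was at 353 CPM in library 5 and at 6.64 to 10.6 CPM elsewhere. RPS10 was at 31.6 and 32.0 CPM in libraries 4 and 5 and at 6.05 to 10.6 CPM elsewhere. Single libraries set the comparisons by title for RPL36A and RPL41. RPL36A had a log2 fold change of 3.93 ± 1.18 (SE) in WT doxycycline against control (edgeR, adjusted p 1.00), of 0.10 without WT doxycycline 2, which is library 5, and of 2.11 with its pseudogenes. RPL41 had 1.94 ± 0.99 in Y273F doxycycline against control (adjusted p 0.990), and -0.34 without Y273F doxycycline 3, which is library 12.

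RPS10 had a log2 fold change of 1.40 ± 0.46 (SE) in WT doxycycline against control (edgeR, adjusted p 1.00), of 1.11 to 1.83 when any 1 library was left out and of 0.82 with its pseudogenes. In GENCODE v29, 39.4% of the exonic bases of RPS10 are shared with RPS10-NUDT3 and 8.40% of those of RPL36A with RPL36A-HNRNPH2, read-through genes on the same strand. RPS20 was at 2836, 2545 and 2824 CPM in libraries 1, 2 and 8 and at 1447 to 1975 CPM elsewhere, and 2 of these are titled WT control. Its log2 fold change in WT doxycycline against control was -0.51 ± 0.20 (adjusted p 1.00). RPS28 ranged from 189.8 to 878 CPM, and its highest values were in libraries 2, 4, 11 and 9, at 878, 826, 691 and 593 CPM, so each of the 4 sets held 1 of them. RPS12 was at 3208 CPM in library 10 against 1479 and 1445 CPM in libraries 2 and 6. In all, the highest library was more than 2 times the lowest in 17 of 78 members, and the median ratio was 1.65.

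For several genes a pseudogene of the same name was read at a level that moved against the gene. RPS2 was at 1322, 1281, 1520.4, 1685, 1696 and 1762 CPM in libraries 2, 6, 10, 4, 7 and 11, and its pseudogene RPS2P46 was at 865, 779, 818, 920.4, 902 and 885 CPM there. In the other 6 libraries RPS2 was at 2397 to 2887 CPM and RPS2P46 at 39.3 to 84.1 CPM. Neither range overlapped. RPS15 was at 1391 CPM in library 9, where RPS15P4 was at 34.8 CPM, and at 498 to 817 CPM in the other 11, where RPS15P4 was at 513 to 887 CPM. RPLP0P2 was at 19.6 to 32.0 CPM in libraries 1, 5, 6, 7, 9 and 11, where RPLP0 was at 1877 to 2247 CPM, and at 108 to 192 CPM in the other 6, where RPLP0 was at 781 to 1552 CPM.

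**Figure D5:**
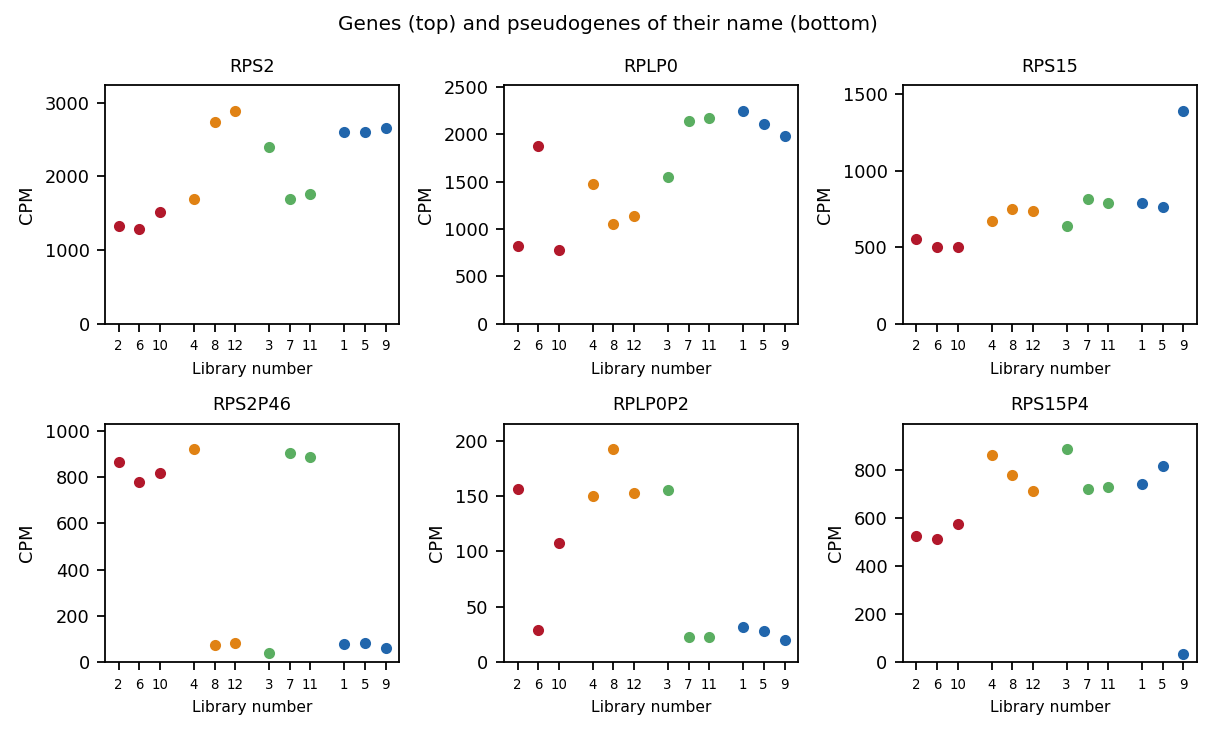
CPM (linear axes from 0) of RPS2, RPLP0 and RPS15 (top) and of the pseudogenes RPS2P46, RPLP0P2 and RPS15P4 (bottom) in each library, ordered by set of library numbers; each point is a library and colours mark the sets. RPS2 and RPLP0 are high in the libraries where their pseudogene is low, and library 9 has 1391 CPM for RPS15 and 34.8 CPM for RPS15P4.

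Summed with its pseudogenes, RPS2 was at 2390.2, 2285 and 2522 CPM in libraries 2, 6 and 10, against 2728, 2739 and 2754 CPM in libraries 1, 5 and 9. The log2 difference was -0.19, against -0.93 for RPS2 alone, and the SD of log2 CPM over 12 libraries was 0.12, against 0.44. For RPS15 the difference was -0.52 with pseudogenes and -0.87 alone, and for RPLP0 -0.82 and -0.99. With pseudogenes 61 of 78 were lower and 1 higher in libraries 2, 6 and 10 against 1, 5 and 9, with a median of -0.30, and 63 were lower and 1 higher against libraries 4, 8 and 12, with a median of -0.46. In libraries 3, 7 and 11 against 1, 5 and 9, 28 were higher and 1 lower, against 34 and 3 for the genes alone, with a median of 0.09. In libraries 4, 8 and 12 against 3, 7 and 11, 2 were higher and 1 lower, against 2 and 2 alone. Of all genes, each counted alone, 27.6% were lower and 27.7% higher in the first of these pairs. In the second pair 23.1% were lower and 25% higher. In the third 9.67% were higher and 9.99% lower, and in the last 8.99% were higher and 8.5% lower.

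Other gene lists of ribosome production were read in the same pairs. Over all genes, 27.6% were lower and 27.7% higher without overlap in libraries 2, 6 and 10 against 1, 5 and 9, and 23.1% lower and 25% higher against 4, 8 and 12. Non-ribosomal TOP messages, such as those of elongation factors, were lower without overlap in libraries 2, 6 and 10 for 14 of 24 genes against libraries 1, 5 and 9 (3 higher, median -0.21), and for 18 of 24 against libraries 4, 8 and 12 (2 higher, median -0.32). LGALS1, the gene for galectin-1, was one of the exceptions, with 848, 679 and 757 CPM in libraries 2, 6 and 10 against 354, 333 and 319.6 CPM in libraries 1, 5 and 9. Among small nucleolar RNA host genes, whose introns hold guide RNAs for ribosomal RNA modification, 6 of 11 were lower and 2 higher in the first pair and 7 lower and 0 higher in the other. GAS5, one of them, had 137, 134 and 134 CPM in libraries 2, 6 and 10 against 287, 232 and 272 CPM in libraries 4, 8 and 12, and libraries 1, 5 and 9 lay between, at 169, 169 and 168 CPM.

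Libraries 3, 7 and 11 were above libraries 1, 5 and 9 without overlap in 12 of 24 non-ribosomal TOP genes and in 6 of 11 host genes, with 0 lower in either list, beside 9.67% higher and 9.99% lower of all genes. Mitochondrial ribosomal proteins, which serve a separate ribosome, were lower in 32 of 75 and higher in 4 in libraries 2, 6 and 10 against 1, 5 and 9 (median -0.20), and lower in 24 and higher in 7 against 4, 8 and 12 (median -0.10). Ribosome biogenesis factors were near the shares of all genes, with 12 of 60 lower and 15 higher in the first of these pairs (median 0.06) and 13 lower and 10 higher in the other (median -0.04). FBL, the methyltransferase fibrillarin, had 248, 216 and 292 CPM in libraries 2, 6 and 10 against 516, 531 and 486 CPM in libraries 1, 5 and 9. SBDS, which helps release a factor that keeps the large subunit from joining, had 126, 145 and 90.8 CPM against 46.4, 52.5 and 56.4 CPM. Cytosolic translation factors had 4 of 30 lower and 8 higher against libraries 1, 5 and 9 (median 0.02), and 7 lower and 6 higher against 4, 8 and 12 (median -0.04). Regulators of ribosome synthesis such as the mTORC1 pathway had 4 of 18 lower and 4 higher (median -0.03), and 5 lower and 4 higher (median 0.04), in the same pairs. By title 0 genes of any of these lists passed edgeR's test at an adjusted p of 0.05.

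Members with and without the pyrimidine run at their start were both mostly lower. In libraries 2, 6 and 10 against 1, 5 and 9, the median difference was -0.29 over the 47 tested genes with a C and 4 more pyrimidines at a start, of which 36 were lower without overlap, beside 27.6% of all genes. It was -0.31 over the 16 tested genes whose annotated starts lacked it, of which 12 were lower. The 15 tested genes with no entry among the RefSeq promoters had a median of -0.35, and 12 were lower. Against libraries 4, 8 and 12 the medians of these classes, in the same order, were -0.41, -0.49 and -0.53. There 38, 12 and 12 genes were lower without overlap, beside 23.1% of all genes. The difference between these classes was not tested, and a missing run says only that these letters are not at the annotated start.

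Markers of other cell types and technical measures were compared between libraries 2, 6 and 10 and the other 9. The sums of the fibroblast and of the epithelial markers did not overlap. The summed level of the 5 fibroblast markers, mostly COL1A1, was 148 to 211 CPM there and 14.4 to 30.7 CPM in the other 9, with DCN at 1 count in all libraries together. The summed level of the 4 epithelial markers, mostly KRT18 and KRT8, was 8121 to 11008 CPM there and 2947 to 4608 CPM in the other 9. The 3 immune markers summed to 5.59 to 11.0 CPM and 5.01 to 9.05 CPM, the 3 endothelial markers to 0 to 0.279 CPM and 0 to 0.590 CPM, and the 4 alveolar type II markers to 0.671 to 1.44 CPM and 0 to 0.842 CPM. Total counts were 2783265 to 7167086 there and 2996905 to 22028624 in the other 9, and multimapping reads made up 5.20% to 5.81% and 5.25% to 7.96% of reads. The immune, endothelial and alveolar markers, total counts and multimapping overlapped. The part of these measures in the lower CPM of ribosomal protein genes was not tested.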

How the data were processed

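QuantSeq FWD V2 libraries, which keep the strand and read near the polyadenylated end, were prepared from column-purified RNA, per the labels' protocols. STAR was used against GRCh38.p14, per the submitters' processing notes; on its version, the gene annotation and any use of molecular identifiers nothing is given in the sources used here. For every library the authors deposited STAR's gene counts, and for the series a merged count table, whose 40605 rows each equal a transcript-strand row in all 12 libraries. The merged counts were used; STAR's rows that name no gene, 35.5% to 43.2% of reads, are not among them.

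The libraries were grouped by title. Genes were filtered with filterByExpr (minimum count 10), scaled with TMM and tested in R 4.3.3 by edgeR's quasi-likelihood test (version 4.0.16), fitting the means of all 4 groups together, with Benjamini-Hochberg adjustment over 13047 genes and a threshold of 0.05. Log2 CPM used a prior count of 2. Nothing in the labels ties same-numbered libraries to 1 population, and p-values measure the spread between the libraries as titled. Sets of libraries got no p. The floor of 3 counts covers counting error only.

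The members, lists and sets were chosen with earlier results of these data known. The genes named are RPS27L, RPL39L, RPL3L, RPL10L, RPLP0, RPLP1, RPLP2, RPSA, RPS27A, FAU, RPL5, RPL11, RPS6, RPS3, RPL3, RPL10 and RPL41, and the 3 highest and 3 lowest of each comparison or pair with a mean of at least 5 CPM; of other lists, the highest and lowest of each pair; others were chosen after their values were seen, as was RACK1. A few genes are not reported here. Coordinates and promoter windows are from RefSeq on GRCh38.p14, and overlaps from GENCODE v29. Alternatives were DESeq2 1.42.0 size factors and Wald test, limma-voom (limma 3.58.1), library totals, TMM without members, other filters, a prior count of 0.5, the transcript-strand table, a replicate block, only the groups compared, and leaving out libraries; genes summed with their named pseudogenes and a median over members were added after the data were seen. The procedure was tested on simulated counts.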

Additional observations from a re-analysis of the deposited data

How the results depend on the processing

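The number of members called by title was 0 in each comparison under every alternative run. The number of all genes called in Y273F control against WT control was 2 with the DESeq2 Wald test; the cause was not tested. Leaving out each library in turn gave 0 to 1 genes called in Y273F doxycycline against control, in the difference of effects and in Y273F control against WT control, and 0 in WT doxycycline against control. The members' median log2 fold change ranged from -0.13 to 0.09 in Y273F doxycycline against control, from -0.12 to 0.15 in WT doxycycline against control, from -0.08 to 0.21 for the difference and from -0.07 to 0.17 in Y273F control against WT control. Without libraries 2, 6 and 10 these medians were 0.09, 0.04, -0.06 and -0.07, so the sign turned in 3 of the 4 comparisons.

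Leaving out each library, the difference in list level ranged from -0.35 to -0.30 for libraries 2, 6 and 10 minus 1, 5 and 9, from -0.47 to -0.37 for 2, 6 and 10 minus 4, 8 and 12, from 0.02 to 0.08 for 3, 7 and 11 minus 1, 5 and 9, and from -0.01 to 0.09 for 4, 8 and 12 minus 3, 7 and 11. Members without overlap numbered 62 to 67, 64 to 70, 38 to 46 and 6 to 16 in these pairs; with fewer libraries sets overlap less often by construction, and the 16 were without library 4. Summing each gene with its named pseudogenes gave a level difference of -0.28 for libraries 2, 6 and 10 minus 1, 5 and 9, and the median over members gave 0.11 for 3, 7 and 11 minus 1, 5 and 9. Both alternatives were chosen after the data were seen, and the cause of either shift was not tested. Scaling to library totals left 72 and 74 of 78 members lower in the pairs with libraries 2, 6 and 10, against 72 and 75 with TMM, but moved members lower in libraries 4, 8 and 12 minus 3, 7 and 11 to 37, against 27.

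The replicate block changed no call: 0 members and 0 genes passed in each comparison, with a members' median of 0.02 in the WT line and -0.03 in the Y273F line. Same-numbered libraries correlated from -0.66 to 0.25 in their distance from the mean of their group. Libraries 2, 6 and 10, which stood apart, carry different replicate numbers, so these correlations cannot decide whether the numbers pair the libraries. A fit of only the groups compared was not run for the difference, which uses all 4 groups. Counts under about 10 in RPL17 and RPL3L were too low to show a difference.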
